A study of Homo sapiens and Mus musculus with 9 samples.

Results

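Lone liver peaks are RNA sites that stood by themselves on their strand in the peak list of mouse liver carrying human pregnane X receptor (PXR). The members were chosen by position: a peak on chromosomes 1 to 19 or X with no other peak of the list on the same strand within 20000 bp, measured between edges. In all 1650 of 2162 liver peaks on these chromosomes met the rule, out of 2178 peaks in the liver list and 5884 in the 4 lists of the series. The 512 other peaks on these chromosomes lay in loci of several peaks. Since peak positions selected the members, their isolation is a given and not a result.

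The assay was enhanced UV crosslinking and immunoprecipitation (eCLIP). In the protocol given for the cells of the series, 254 nm light at 400 mJ/cm2 joined RNA to protein, RNase I cut the RNA and an antibody pulled down the complexes. The liver group consisted of humanized PXR mice described as normal tissue, sampled as 1 input without antibody and as 2 immunoprecipitates with an antibody to PXR. Strain, age, sex, any drug treatment, the number of animals and whether mouse Pxr was removed are not stated in the sources used here. No liver sample of mice without human PXR, or with a control antibody, was analysed here. One list stood for both immunoprecipitates, every one of its peak names began with S1, and whether it came from 1 library or from both was not stated. It gives no values for single libraries, which leaves replicate error unknown. No test was therefore run, and the intervals given for shares (Clopper-Pearson, 95%) cover counting of peaks only.

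PXR is a nuclear receptor of liver and intestine that binds drugs and bile acids and switches on genes of detoxification and transport. In eCLIP, reverse transcription often stops at the nucleotide bound to protein, so reads from 1 contact site can begin at nearly the same base and form a stack. Compact noncoding RNAs, such as transfer RNAs, small nucleolar RNAs and the RNA parts of RNase complexes, come from short genes and can give isolated signal, whereas reads from a messenger RNA spread over its exons. Scattered pseudogene copies of abundant RNAs can also collect reads that belong elsewhere. Sorting the lone peaks into small RNA, pseudogene and ordinary gene sites needs mouse gene annotation, which was not used here. The sites are therefore given by mm10 position, and by width and depth in place of a gene name, and hepatocyte markers could not be checked either.

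Peaks were narrow. Their median width was 200 bp, the quartiles were 200 and 204 bp, and the widest spanned 1257 bp. In 956 lone peaks (57.9%) the width was exactly 200 bp, the smallest in the list, and 154 were 201 bp, 78 were 202 bp, 39 were 203 bp, 22 were 204 bp and 21 were another base wider. The numbers thus fell steadily over these 6 widths and then stayed at 4 to 12 peaks for each of the next 5. Together the peaks within 5 bp of the smallest width, called stacks here by width alone, made up 1270 of 1650 (77.0%, interval 74.9 to 79.0%). With each read extended to 200 bp, which was inferred from the deposited values, reads that begin at 1 base give a peak of 200 bp. The reverse does not hold, since a width of 200 bp is also the smallest in the list and reads beginning at several bases can reach the caller's threshold over that length. Of the other lone peaks, 180 spanned up to 250 bp, 87 spanned over 250 and up to 300 bp, 74 up to 400 bp and 39 were wider still.

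Most lone peaks were shallow, and a few were extremely deep. Reads at the summit, recovered from the deposited fold and −log10 p, had a median of 9 with quartiles of 5 and 19. In 881 lone peaks (53.4%) the summit held fewer than 10 reads, and 146 peaks rested on 3 reads. All 146 were exactly 200 bp wide, and in 122 of them the 3 reads were the only ones in the surrounding 10000 bp, which gave a deposited fold of 3.77. At the other end 189 lone peaks (11.5%) held at least 50 reads and 55 held at least 200. One site decided the total: of 268830 summit reads over the lone peaks, 193871 (72.1%) lay in the deepest. Among the 74959 reads left without it, the next deepest site took 21.5%, and the 881 peaks under 10 reads took 6.59%. Lone peaks held 87.0% of the summit reads of the list's peaks on these chromosomes, and 65.2% without the deepest site. Summit reads leave out other reads of the surrounding 10000 bp. The summit held a median of 24.4% of those reads in multi-peak loci and 100% at lone peaks. These 2 shares are therefore not shares of all reads in peaks.

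**Figure D1:**
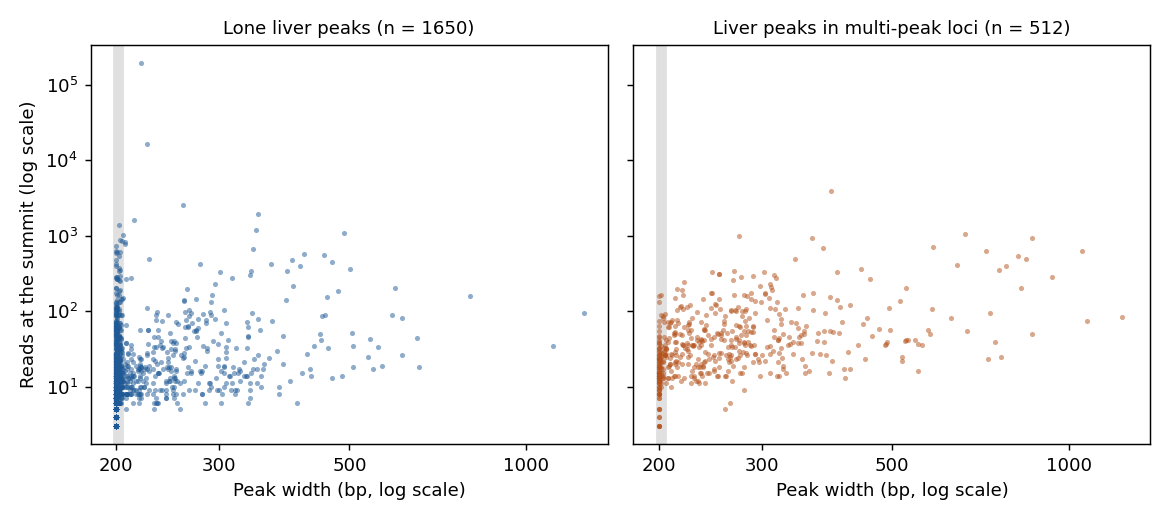
Peak width in bp (x axis, log scale) against reads at the summit (y axis, log scale), 1 point per peak, for the 1650 lone liver peaks (left) and the 512 peaks in multi-peak loci (right). The grey band marks stacks, the widths within 5 bp of 200 bp, and holds 1270 lone peaks and 120 of the others, and the top point on the left is the site with 193871 reads.

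Peaks in multi-peak loci were wider and deeper, with a median width of 245 bp and a median of 35 reads. Of these, 120 of 512 (23.4%, interval 19.8 to 27.4%) were stacks. Depth differed between both kinds of peak, so widths were set side by side within bins of depth. Among peaks of 3 to 5 reads 458 of 461 lone peaks and 9 of 10 others were stacks, and no peak under 200 bp is in the list at any depth. At 10 to 19 reads the shares were 62.2% (225 of 362) and 44.5% (49 of 110). At 20 to 49 reads they were 60.6% (132 of 218) and 20.4% (41 of 201), and from 50 to just under 200 reads 55.2% (74 of 134) and 7.53% (11 of 146). Of the peaks with 200 reads or more, 25 of 55 lone peaks (45.5%, interval 32.0 to 59.4%) and 0 of 33 others (upper bound 10.6%) were stacks. The share of stacks was thus lower in deeper bins for both kinds, and from 10 reads upward it was higher among lone peaks in each bin. These are counts from 1 list and were not tested.

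**Figure D2:**
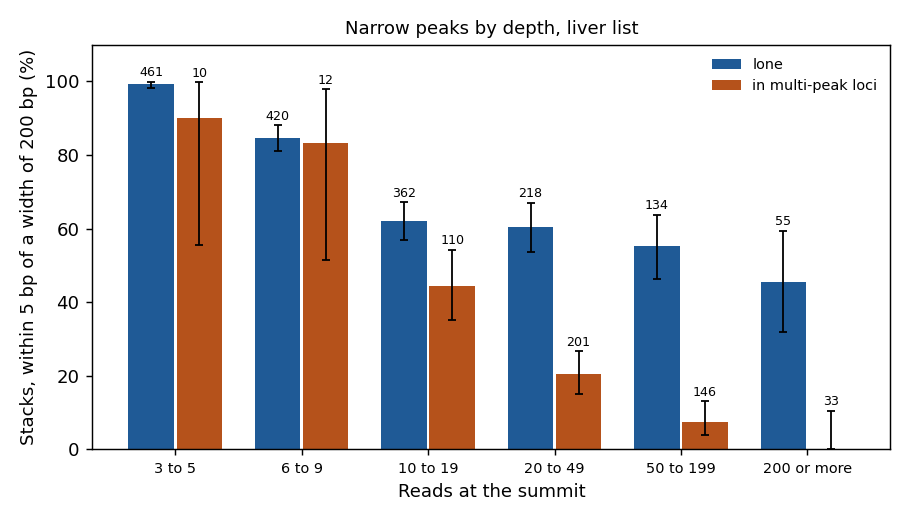
Percent of peaks that are stacks, within 5 bp of a width of 200 bp (y axis), by reads at the summit (x axis) for lone liver peaks and for liver peaks in multi-peak loci. Bars start at 0, lines are Clopper-Pearson 95% intervals and numbers give the peaks in each bin; lone peaks fall from 99.3% at 3 to 5 reads to 45.5% at 200 or more, and the others from 9 of 10 peaks to 0 of 33.

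The surroundings of lone peaks held few other reads. In 878 of 1650 lone peaks (53.2%, interval 50.8 to 55.6%) the summit held every read of its 10000 bp window, and in 1007 (61.0%) it held at least 90%. In 13.1% it held under 50%. Among peaks in multi-peak loci 13 of 512 (2.54%) held every read and 439 (85.7%) under 50%. Part of this contrast is built into the rule, because a neighbouring peak within the window puts reads there. The share of lone peaks holding every window read was 75.5% at 3 to 5 reads, 47.4% at 6 to 9, 38.1% at 10 to 19, 44.5% at 20 to 49, 46.3% from 50 to just under 200 and 61.8% at 200 or more. It was therefore lowest in the middle of the depth range and higher at both ends.

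**Figure D3:**
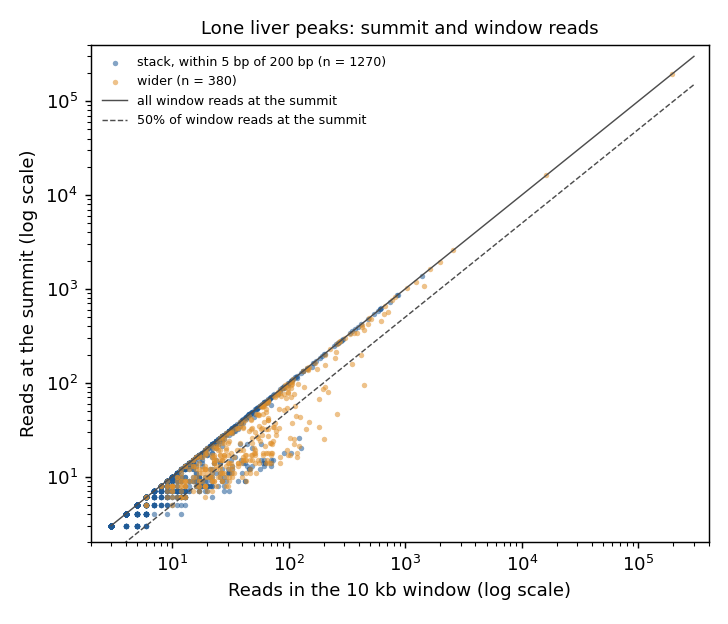
Reads at the summit (y axis, log scale) against reads in the 10000 bp window around it (x axis, log scale) for the 1650 lone liver peaks, coloured by width. Points on the solid line hold all reads of their window (878 peaks), and 13.1% of peaks lie below the dashed line of 50%.

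Width and the share of window reads at the summit sorted the lone peaks into 4 shapes, with limits set after the values were seen. Stacks without any other read in the window were the most frequent, at 839 (50.8%) with a median of 7 reads. Stacks with other reads nearby numbered 431 (26.1%), with a median of 8 reads. Wider peaks that held at least 90% of their window reads, called compact sites here, numbered 96 (5.82%), with a median width of 253 bp and a median of 61 reads. Wider peaks with under 90% numbered 284 (17.2%), with a median of 16 reads of 33 in the window. In multi-peak loci the last shape was the most frequent (388 of 512, 75.8%), and compact sites numbered 4. Among the 189 lone peaks of at least 50 reads, 77 were stacks without other reads and 22 stacks with other reads. A further 56 were compact sites and 34 were wider peaks with under 90% of their window reads at the summit. In each of these 22 stacks the summit still held at least 82.9% of the window, with a median of 97.1%.

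The deepest site lay at chr2:90394970-90395190 on the minus strand. Its 193871 reads were all the reads of its window, its width was 221 bp and its fold was 49.99, next to the limit of 50 that this solved background allows. The second, chrX:87238360-87238585 on the plus strand, held 16151 reads in 226 bp, again all of its window. Another such site, chr18:73533279-73533538 on the minus strand, held 2570 reads in 260 bp. A smaller site on chromosome X, chrX:33416488-33416702, held 1623 reads in 215 bp with none beside them. These 4 were compact sites, and their nearest peaks on the same strand were 257083, 11015126, 1244745 and 3174654 bp away. Among the 15 deepest lone peaks 9 held all reads of their window, 14 held at least 95%, 4 were stacks and 11 lay on the minus strand.

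Of the compact sites of at least 50 reads, 10 were 300 to 360 bp wide. The deepest was chr3:69084969-69085317 on the minus strand, 349 bp wide, with 1950 of 2000 window reads at its summit. The site chr6:124715310-124715656 on the plus strand was 347 bp wide with 1198 of 1244 reads. On chromosome 4, chr4:43492696-43493038 on the minus strand was 343 bp wide with 661 of 669 reads. In each of these 3 the summit lay near the middle, 165 to 167 bp from the lower edge. A larger number of compact sites at this depth, 27 of 56, were 250 to just under 300 bp wide, 14 were up to 230 bp, 2 lay between these, and 3 were over 360 bp. The 27 sites were thus at least 50 bp wider than 1 extended read, with at most 10% of the window reads away from the summit.

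The deepest stack without any other read was chr6:61267394-61267595 on the minus strand, with 1386 reads in 202 bp. Others were chr13:9834170-9834374 (856 reads, minus strand), chr7:73719315-73719514 (734 reads, plus strand), chr7:84529005-84529204 (621 reads, plus strand) and chr15:45299064-45299263 (584 reads, minus strand). The last 3 were exactly 200 bp wide with summits at offsets of 100, 98 and 100 bp, as reads that begin at nearly a single base would give. Stacks with a few reads beside them included chr3:108086218-108086420, with 867 of 871 window reads, and chr4:106911203-106911404, with 538 of 541. The PCR ran for 9 to 18 cycles per the labels, and whether copies of a molecule were removed is not given in the sources used here. Reads in a stack can therefore not be taken as a count of RNA molecules, and the part of PCR copies in these depths was not tested.

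Reads that begin at 1 base and are extended to 200 bp put the summit at an offset of about 100 bp by construction, so a central summit is no separate trait of the stacks. In 964 of 1270 stacks (75.9%) the summit lay within 3 bp of 100 bp from the lower edge, and in 306 (24.1%) it lay further off. Among stacks without any other read in the window 781 of 839 (93.1%) had a central summit, and among stacks with other reads 183 of 431 (42.5%). Of the 99 stacks with at least 50 reads, 90 had one. Off-centre stacks included the one of 856 reads on chromosome 13, whose summit lay near the upper edge, and that of 538 reads on chromosome 4, at 15 bp. In the 380 wider lone peaks the summit lay at a median of 49.8% of the width from the 5′ edge. The quartiles were 41.4 and 55.8%, and a lean to either side was not tested.

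The deepest wider peaks with reads around them were spread more broadly. The first, chr3:108554200-108554688 on the minus strand, was 489 bp wide with 1084 of 1440 window reads at its summit. It was followed by chrX:123103481-123103899 (574 of 707 reads, 419 bp) and chr6:125186206-125186658 (545 of 658 reads, 453 bp), both on the minus strand. The widest lone peak, chr17:56119634-56120890 on the minus strand, covered 1257 bp and had 94 of 444 window reads at its summit. Next came chr15:99408722-99409832 (1111 bp, 34 of 181 reads), chr8:84842008-84842811 (804 bp, 159 of 350 reads), chr15:74958734-74959391 (658 bp, 18 of 52 reads) and chr19:4063719-4064370 (652 bp, 44 of 115 reads). In all 5 the summit held under 50% of the window. This was the case in 130 of the 380 wider lone peaks (34.2%) and in 86 of the 1270 stacks (6.77%). With the inferred extension to 200 bp, reads that cover a summit reach at most 200 bp to either side of it. Peaks of 652 to 1257 bp must therefore hold reads away from their summit. Part of the contrast between wider peaks and stacks is thus built into width, and how large a part was not tested.

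Lone peaks were divided evenly between strands, with 825 on each. Every chromosome of the rule carried some, from 43 on chromosome X to 138 on chromosome 2. They made up from 57.4% of the peaks of chromosome 17 (58 of 101) to 96.6% of those of chromosome 13 (56 of 58). The share of stacks among them varied less, from 67.3% on chromosome 1 to 84.3% on chromosome 5, and median summit reads ran from 7.5 to 12.5. Peaks per chromosome were not scaled by chromosome length.

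**Figure D4:**
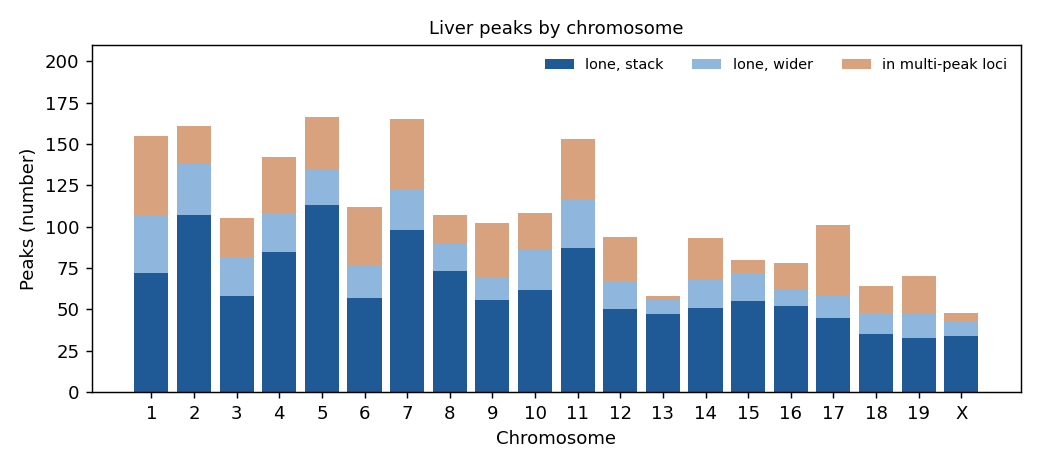
Number of liver peaks on chromosomes 1 to 19 and X, split into lone stacks (within 5 bp of 200 bp), wider lone peaks and peaks in multi-peak loci. Lone peaks outnumber the others on every chromosome, with the lowest share on chromosome 17 (58 of 101) and the highest on chromosome 13 (56 of 58).

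The distance to the nearest peak on the same strand had a median of 647532 bp among lone peaks, and 605 (36.7%) had none within 1 Mb. The members nearest to the limit were chr3:19957319-19957561 (gap 20102 bp, 12 reads), chr6:122079576-122079783 (20323 bp, 14 reads) and chr10:77059084-77059336 (21231 bp, 16 reads). Just outside it were chr1:140162869-140163096 and chr1:140183044-140183264, 19947 bp apart with 16 and 13 reads, and chr17:35266951-35267371 (19539 bp, 29 reads). On the opposite strand 56 lone peaks (3.39%) had a peak within 20000 bp. Of these, 12 overlapped one, as 6 pairs in which both peaks were lone. The pair with most overlap was on chromosome 8, with 14 reads on the plus strand (chr8:70597938-70598137) and 21 on the minus strand (chr8:70597916-70598116), sharing 179 bp. A pair on chromosome 2 had 4 reads on the plus strand and 46 on the minus strand, and a pair on chromosome 5 had 26 and 20.

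The same rule was applied to the 3 human lists, with chromosome numbers running to 22. It left 1317 lone peaks in HepG2 (a liver cancer line, HA-tag immunoprecipitates). In LS174T (a colon cancer line) it left 1416 in the list named WT and 32 in the list named KO. The titles give the LS174T samples as wild type and PXR knockout, and these list names disagree with the samples they are filed under. Stacks made up 65.7% of lone peaks in HepG2 (interval 63.0 to 68.2%), 51.0% in the WT-named list (48.3 to 53.6%) and 59.4% in the KO-named list (40.6 to 76.3%), against 77.0% in liver. Exactly 200 bp wide were 57.9% in HepG2, as in liver, 41.5% in the WT-named list and 37.5% in the KO-named list. Median width was 200 bp in HepG2, as in liver, and 204 and 203 bp in the WT-named and KO-named lists. Median summit reads were 9 in HepG2 and the WT-named list, as in liver, and 14.5 in the KO-named list. All window reads lay at the summit in 35.1%, 22.2% and 31.3%, against 53.2% in liver. At 50 reads or more the share of stacks was 52.4% in liver (99 of 189). It was 57.5% in HepG2 (23 of 40, interval 40.9 to 73.0%) and 45.5% in the WT-named list (25 of 55, 32.0 to 59.4%). At 20 reads or more the share was 56.8% in liver (231 of 407, 51.8 to 61.6%). In HepG2 it was 42.0% (66 of 157, 34.2 to 50.2%) and in the WT-named list 26.9% (49 of 182, 20.6 to 34.0%). These intervals cover counting of peaks within a list only, and differences between lists were not tested. The KO-named list had 3 lone peaks of at least 50 reads and 10 of at least 20. Organism, tissue or cell line, and depth differ together between liver and the human lists. HepG2 differs also in antibody, and the KO-named list, by its name, in PXR genotype. These differences cannot be told apart.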

How the data were processed

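Peaks of eCLIP libraries were deposited as 1 list for liver, 1 for HepG2 and 2 for LS174T. Tools were cutadapt, BWA and MACS2 and builds hg38 and mm10, per the submitters' processing notes; versions and settings are not given in the sources used here. Each row holds the authors' deposited score, fold (a ratio), −log10 p-value and q-value, and summit offset. The deposited score was the −log10 q times 10 without its decimals in 2178 of 2178 liver rows. Stacks are peaks of 200 to 205 bp.

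Reads at the summit (n) and in the window were solved here from fold = (n + 1) / (λ + 1) and the Poisson p, with λ a multiple of 0.02 (whole reads in 10000 bp, extension 200 bp); p had to match within 0.001 plus a small relative term. In liver 2176 of 2178 peaks had 1 solution. The other 2, among them the deepest lone peak, are approximate. On 2178 simulated peaks 2178 were recovered. These were drawn from the same formulas, so this checks the solver only. No source states if the input served as control in peak calling. Window reads were solved on the assumption that the background came from immunoprecipitate reads. A summit cannot then exceed its window, which limits the fold to 50, and 0 of 2178 liver peaks had a fold over 50. With a background from the input, the window counts would not be immunoprecipitate reads. That alternative was not tested. Counting error aside, PCR copies may limit precision.

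Positions are 1-based. Members, gene lists and limits were chosen with earlier results of these data known. Named sites followed a rule: the 15 deepest, the 10 deepest of a class (shape in place of annotation, examples given), the 5 widest, and 3 on each side of the gap limit. The planned annotation classes, gene lists and sequence composition were not run. Python 3.11.15, pandas 2.3.3 and scipy 1.17.1 were used.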

Additional observations from a re-analysis of the deposited data

How the results depend on the processing

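With a gap of 10000 or 50000 bp, or with neighbours on either strand, the rule gave 1707, 1553 and 1594 lone peaks. In each setting the median width stayed at 200 bp and median reads at 9. The shares of stacks and of peaks holding all window reads stayed within the intervals of the main setting. With −log10 q of at least 5, 1137 lone peaks were left, with a median width of 201 bp, a median of 14 reads, 68.2% stacks and 46.8% holding all window reads. With at least 10 reads the median width was 202 bp and these shares were 59.3% and 43.0%. With at least 50 reads, a limit chosen after seeing the data, 52.4% were stacks. A stack taken as exactly 200 bp gave 57.9%, and as 200 to 210 bp 79.4%. Without the deepest lone peak, also chosen after seeing the data, the share of summit reads at lone peaks was 65.2%. Dropping the whole-number condition on the background left median reads at 9. Fewer peaks by construction enter the stricter settings; other causes were not tested. No annotation class could be varied. No paired analysis was possible because the list holds no values per library. Shallow peaks limit what widths show, since 53.4% of lone peaks have fewer than 10 reads.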
